A study of Rattus norvegicus with 10 samples.

Results

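The piRNA pathway of the newborn testis was followed through 7 genes, Piwil2, Piwil4, Tdrd1, Tdrd9, Mael, Mov10l1 and Ddx4, in testes of rat pups on postnatal day 6. All probes of the array whose RefSeq transcript belongs to these genes were taken, which gave 5 probes of 4 genes among 30367 probes on the array. Piwil2 had 2 probes, and Tdrd1, Mael and Ddx4 had 1 each. No probe could be matched to Piwil4, Tdrd9 or Mov10l1 by transcript, so these 3 genes have no value here. Of the 5 probes, 4 passed the filter on dim probes, 1 for each of the 4 genes, out of 11561 genes tested.

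The pups were males of a cross of Brown Norway fathers with Sprague Dawley mothers, untreated themselves as far as the labels say. Their fathers had been given saline or BEP over 9 weeks and then left to recover for 9 weeks, with 5 fathers in each group. BEP commonly stands for bleomycin, etoposide and cisplatin, the drugs used against testicular cancer, which the labels do not spell out. Each of the 10 arrays carries the code of another father, with the letter C on 5 arrays and T on 5. The arrays are called C1 to C5 and T1 to T5 here; that C means saline and T means BEP is a reading of the letters alone, and no label states it. The sources used here do not say how many pups stand behind an array.

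piRNAs are small RNAs of the germ line that guide PIWI proteins to transcripts of transposons. In gonocytes, the germ cells of the perinatal testis, PIWI proteins loaded with piRNAs cut such transcripts in the cytoplasm and direct DNA methylation to transposon copies in the nucleus. Piwil2 (MILI in the mouse) is the PIWI protein that cuts transposon RNA and amplifies piRNAs, and Piwil4 (MIWI2) is the nuclear one that needs them for DNA methylation. Mov10l1 is an RNA helicase that binds piRNA precursors, Ddx4 (the Vasa homologue) is a DEAD-box helicase of the germ granules, and Tdrd9 is another helicase, which works with Piwil4. Tdrd1 is a scaffold with Tudor domains that holds methylated PIWI proteins in the germ granules, and Mael is an HMG-box protein of germ granules. Mice that lack any of these genes lose male germ cells.

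Levels are given as the log2 of the spot signal relative to the 75th percentile of the same array, so 0 is a signal equal to that percentile. Levels of different genes are not compared, since each probe has its own brightness. That percentile ran from 1525 to 2686 signal units. The arrays lay on 2 slides, with 3 C and 2 T arrays on slide 1 and 2 C and 3 T arrays on slide 2. Markers of the tissue were detected: 11 of 11 Sertoli cell genes with a probe and 23 of 24 germ cell genes with a probe passed the filter. The germ cell list leaves out all genes of the piRNA pathway. A bulk array cannot tell fewer germ cells from less RNA per germ cell, which holds for every gene below.

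Piwil2, Mael and Ddx4 stood higher on average on the T arrays and Tdrd1 stood lower, each by less than 1.2-fold, and no difference passed the test adjusted over all probes. Piwil2, the PIWI protein, had levels of -1.96, -2.12, -1.92, -1.83 and -1.72 on C1 to C5 and of -1.78, -1.70, -1.76, -1.38 and -1.66 on T1 to T5. The groups overlapped, with 3 T arrays above every C array and 4 C arrays below every T array. The T group was 1.19-fold higher (log2 difference 0.25 ± 0.096, SE, 5 arrays per group; limma p = 0.0236, Benjamini-Hochberg adjusted p = 0.999; exact permutation p = 0.0238). The permutation tests are two-sided, and the smallest p that an exact test of 5 against 5 arrays can give is 0.00794. The other Piwil2 probe was well above background on 1 of the 10 arrays, a T array, with 1 of its 2 spots, so it gives no other estimate of the difference. Within slide 1 the difference of the tested probe was 0.26, and within slide 2 it was 0.18.

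Mael, the HMG-box granule protein, had levels of -0.51, -0.49, -0.47, -0.28 and -0.26 on C1 to C5. On T1 to T5 they were -0.37, -0.33, -0.12, -0.01 and -0.20. Again 3 T arrays lay above every C array and 3 C arrays below every T array. The difference was 0.20 ± 0.087 (1.15-fold; limma p = 0.0442, adjusted p = 0.999; exact permutation p = 0.0556). Its levels also followed the slides: all 5 arrays of slide 2 lay above all 5 of slide 1, with means of -0.17 ± 0.12 and -0.43 ± 0.079 (SD). Slide 2 lay wholly above slide 1 for 2.22% of all genes tested and wholly below it for 5.17%. With the slide as a term the difference between T and C was 0.15 (limma, adjusted p = 1), and it was 0.14 within slide 1 and 0.17 within slide 2.

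Ddx4, the germ granule helicase, spread most among the members, with levels of -2.96, -3.26, -2.80, -3.05 and -2.79 on C1 to C5. On T1 to T5 they were -3.12, -2.82, -2.77, -2.24 and -2.67. T4 stood far above the other arrays, and T1 lay among the lowest. The difference was 0.24 ± 0.15 (1.18-fold; limma p = 0.137, adjusted p = 0.999; exact permutation p = 0.198). It was 0.04 within slide 1 and 0.35 within slide 2, and 0.12 without T4. The probe has 1 spot on the array, with a signal from 196.1 to 535.8 units.

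Tdrd1, the Tudor scaffold, had the lower mean in T. Its levels were -4.53, -4.42, -4.58, -4.47 and -4.45 on C1 to C5 and -4.81, -4.60, -4.57, -4.66 and -5.01 on T1 to T5. The C arrays lay close together (SD 0.065) and the T arrays were spread (SD 0.18), with 4 T arrays below every C array. T3 alone lay above the lowest C array, C3. The difference was -0.24 ± 0.088 (1.18-fold lower in T; limma p = 0.0211, adjusted p = 0.999; exact permutation p = 0.0159). It was -0.20 within slide 1 and -0.28 within slide 2. The probe has 1 spot on the array and a dim signal, from 65.9 to 113.9 units, though well above background on all 10 arrays.

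**Figure D1:**
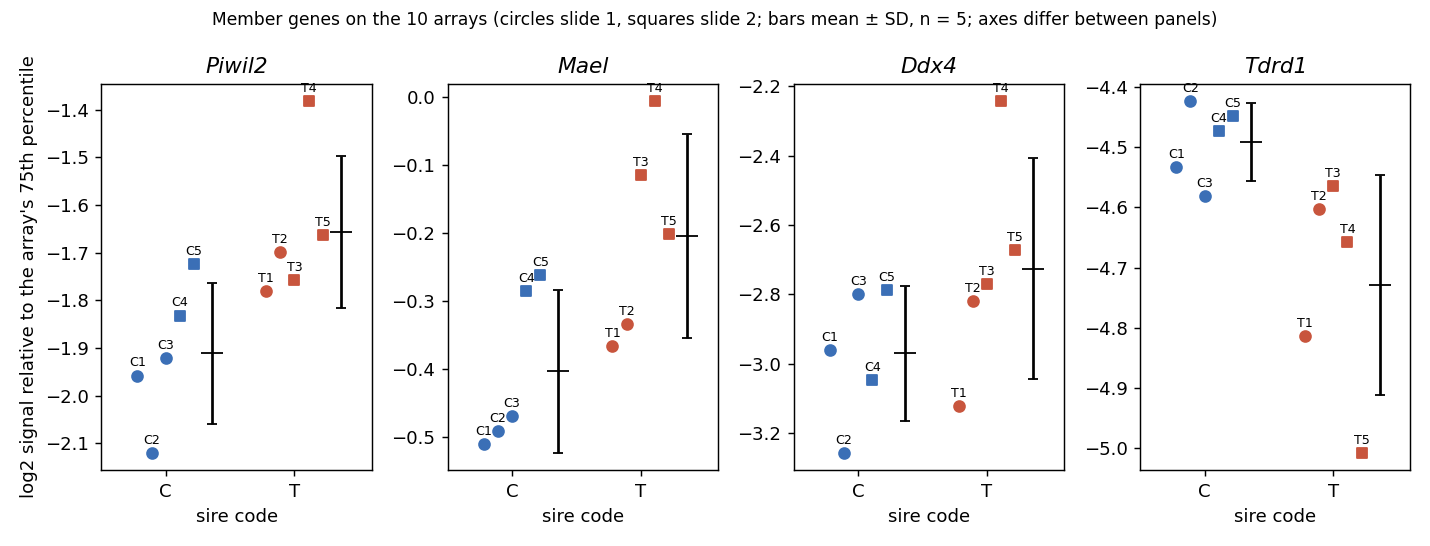
Levels of the 4 measured members on each array (vertical axes: log2 signal relative to the 75th percentile of the array; circles for slide 1, squares for slide 2; bars show mean ± SD of 5 arrays). T4 is the highest array for Piwil2, Mael and Ddx4, and T5 is the lowest for Tdrd1 at -5.01.

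Of 21892 probes tested over the whole array, 0% passed an adjusted p under 0.05 with limma. Unadjusted, 1.59% had a p under 0.05 and a higher mean in T, and 2.38% had one and a lower mean in T. Among the 4 members, 2 (Piwil2 and Mael) fell into the first class and 1 (Tdrd1) into the second. Over all probes 41.5% had the higher mean in T, against 3 of the 4 members. The median difference was 0.22 over the 4 members and -0.020 over all probes. The 95% intervals were 0.04 to 0.47 for Piwil2, 0.01 to 0.39 for Mael, -0.09 to 0.58 for Ddx4 and -0.43 to -0.04 for Tdrd1, without adjustment. A doubling or halving of any of the 4 lies outside these intervals.

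The promoters of Ddx4, Mael and Tdrd1 are shown, the measured members that the promoter table holds, to set the letters of a pair whose levels were correlated, as given below, beside those of Tdrd1. Each is the stretch of 250 bases before the start site in the RefSeq table of the GRCr8 build, 5′ to 3′ on the strand of the gene: Ddx4 at chr2:46015952-46016201 (minus strand), Mael at chr13:81029624-81029873 (minus strand) and Tdrd1 at chr1:265880775-265881024 (plus strand). Capitals mark 3 motifs, which nowhere overlap: the E-box CACGTG, which reads alike on both strands; the E2F core GCGGGA, or its reverse complement TCCCGC; and the box CCAAT, or its reverse complement ATTGG.
Ddx4: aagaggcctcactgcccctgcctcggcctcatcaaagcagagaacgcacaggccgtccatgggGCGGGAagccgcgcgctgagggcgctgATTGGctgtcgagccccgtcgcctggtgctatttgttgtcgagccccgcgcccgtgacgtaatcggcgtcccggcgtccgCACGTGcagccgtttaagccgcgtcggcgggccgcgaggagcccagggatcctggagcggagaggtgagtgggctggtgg
Mael: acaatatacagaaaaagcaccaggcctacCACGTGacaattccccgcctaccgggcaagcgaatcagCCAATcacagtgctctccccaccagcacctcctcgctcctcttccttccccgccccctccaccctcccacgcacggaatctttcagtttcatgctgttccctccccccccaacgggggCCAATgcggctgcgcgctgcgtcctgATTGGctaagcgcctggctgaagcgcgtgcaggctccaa
Tdrd1: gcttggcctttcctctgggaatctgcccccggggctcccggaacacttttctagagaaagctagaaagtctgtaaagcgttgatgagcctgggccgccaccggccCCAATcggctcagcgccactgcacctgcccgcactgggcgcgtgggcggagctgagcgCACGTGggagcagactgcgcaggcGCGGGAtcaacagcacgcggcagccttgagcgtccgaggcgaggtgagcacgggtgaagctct

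The E-box was in all 3 windows and in 5.59% of 33469 promoters of this length. The core of sites of the E2F family was in those of Ddx4 and Tdrd1 and in 16% of promoters. The box bound by NF-Y was in all 3 windows, with 3 copies in that of Mael, and in 34.0% of promoters. The windows of Ddx4 and Tdrd1 held all 3 motifs, as did 0.466% of promoters. That share is over all promoters, not over those with a like count of CG dinucleotides. The windows of Mov10l1 and Piwil4, members without a probe, lacked GCGGGA, and that of Piwil4 also lacked CACGTG. CG dinucleotides numbered 30 in the window of Ddx4, 22 in that of Tdrd1 and 16 in that of Mael, against a median of 5. At least as many CG were in 5.35%, 13.7% and 23.8% of promoters. A match describes these letters and is no evidence of binding.

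Over the 10 arrays the levels of Piwil2, Mael and Ddx4 were correlated with each other, but no pair of them passed the adjusted test without 1 array, T4. Correlations were computed for the 6 pairs of members, for each member with the germ cell marker score and for each with the 75th percentile of the array, 14 in all, with p-values by permutation adjusted over the 14. Piwil2 and Mael had a Pearson r of 0.87 (permutation p = 0.00064, adjusted p = 0.00896) and a Spearman rho of 0.84 (permutation p = 0.00388, adjusted p = 0.0485). Without C2 and T4, the arrays farthest from the median of Piwil2, r was 0.77 (exact permutation p = 0.0279). A slide holds 5 arrays, too few for a value of its own, but after subtracting slide means r was 0.84 (permutation, adjusted p = 0.033) and after subtracting group means 0.78 (permutation, adjusted p = 0.0443). With both subtracted r was 0.64 and did not pass (permutation, adjusted p = 0.142).

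Piwil2 and Ddx4 had r = 0.87 (permutation p = 0.00258, adjusted p = 0.0181) and rho = 0.78 (permutation p = 0.0104, adjusted p = 0.0485). C2 and T4 were the lowest and the highest array of both genes, and without them r was 0.43 (exact permutation p = 0.278). Leaving out both ends also narrows the range of levels, which by itself lowers r. Without C2 alone r was 0.81 and without T4 alone 0.71. The r of Piwil2 with Ddx4 stood at 0.81 after subtracting slide means (permutation, adjusted p = 0.0337) and 0.85 after subtracting group means (permutation, adjusted p = 0.0322). With both subtracted it was 0.79 and did not pass (permutation, adjusted p = 0.09). Mael and Ddx4 had r = 0.77 (permutation p = 0.00822, adjusted p = 0.0384) and rho = 0.79 (permutation p = 0.00924, adjusted p = 0.0485), and without C1 and T4 r was 0.60 (exact permutation p = 0.119). After subtracting slide means it was 0.68 (permutation, adjusted p = 0.107) and after subtracting group means 0.69 (permutation, adjusted p = 0.0815). Without T4 alone none of the 3 pairs passed, with r = 0.78 for Piwil2 and Mael, 0.71 for Piwil2 and Ddx4 and 0.57 for Mael and Ddx4 (exact permutation, adjusted p = 0.176, 0.202 and 0.437).

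For scale, the median r of Piwil2 with 11553 other genes was -0.071, and 0.173% of them had an r at least as high as Mael had. For the pair of Piwil2 and Ddx4 the share was 0.216%, and for Mael with Ddx4 it was 1.9%. Shares like these are a description of 10 arrays, in which all genes share the same hybridisations and scaling.

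**Figure D2:**
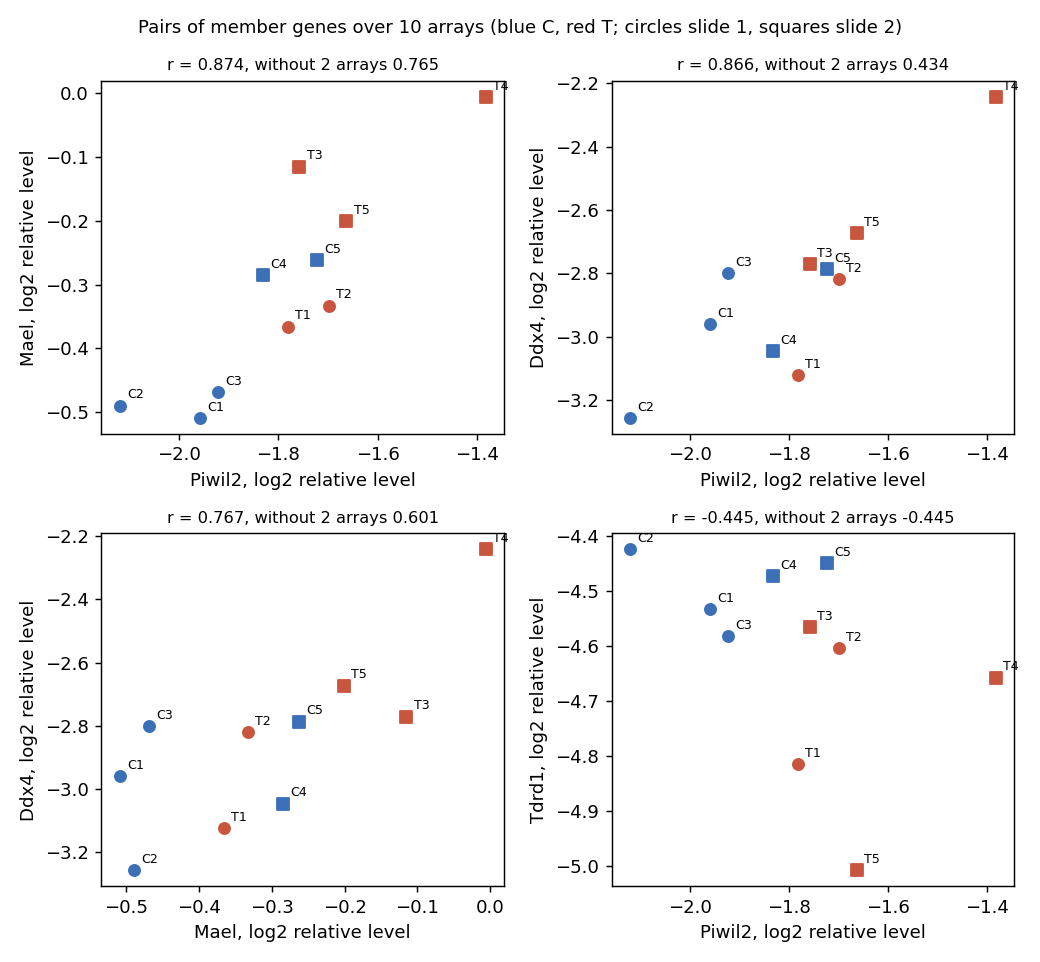
Levels of 4 pairs of members plotted against each other, 1 point per array (both axes: log2 signal relative to the 75th percentile of the array; blue C, red T; circles slide 1, squares slide 2). T4 stands alone at the upper right of the first 3 panels, and the last panel, Tdrd1 with Piwil2, has r = -0.45.

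No relation of Tdrd1 with the other 3 passed. Its r was -0.45 with Piwil2 (permutation p = 0.199, adjusted p = 0.349), -0.30 with Mael (permutation p = 0.407, adjusted p = 0.474) and -0.31 with Ddx4 (permutation p = 0.367, adjusted p = 0.474), and the rho values were -0.62, -0.36 and -0.44. Without C2 and T4, the farthest arrays of Piwil2, the r with Piwil2 was -0.45. Without T1 and T5, the farthest arrays of Tdrd1, it was -0.47 with Mael and -0.80 with Ddx4 (exact permutation p = 0.239 and 0.0101, not adjusted). After subtracting group means they were 0.05, 0.26 and 0.02, so none of the 3 was negative once the group means were removed.

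The score of the germ cell markers, the mean deviation of 23 genes from their averages, was -0.028 ± 0.028 (SD) on the C arrays and 0.028 ± 0.073 on the T arrays (exact permutation p = 0.175). It was highest on T2 at 0.11 and on T4 at 0.084, and lowest on C5 at -0.053 and T5 at -0.050. Its r was 0.53 with Piwil2, 0.48 with Mael, 0.46 with Ddx4 and 0.11 with Tdrd1, and none passed (permutation, adjusted p from 0.349 to 0.788). The rho values were 0.21, 0.26, 0.10 and -0.14. Over 18 alternatives, rho among them, the correlation ran from 0.194 to 0.66 with Piwil2 and -0.048 to 0.71 with Mael. With Ddx4 it ran from 0.103 to 0.645 and with Tdrd1 from -0.205 to 0.717. Each marker counts alike in the score, so a marker with a wide spread moves it more. Lhx1 had an SD of 0.42 on the C and 0.72 on the T arrays, and Dazl 0.095 and 0.13. After subtracting group means the r of Tdrd1 with the score was 0.72 (permutation p = 0.0189, adjusted p = 0.0815), and those of Piwil2, Mael and Ddx4 were 0.31, 0.25 and 0.30 (permutation, adjusted p = 0.616 for each). Without the 2 farthest arrays of each member the r values were 0.26, 0.18, 0.05 and -0.70. With the score as a covariate the differences between T and C were 0.21 for Piwil2, 0.16 for Mael, 0.17 for Ddx4 and -0.34 for Tdrd1 (limma, adjusted p = 1 for each). The 75th percentile of the array had r = 0.31, 0.37, 0.46 and -0.12 with Piwil2, Mael, Ddx4 and Tdrd1 (permutation, adjusted p from 0.349 to 0.788), rho values of 0.35, 0.41, 0.60 and -0.07, and without the 2 farthest arrays r values of 0.42, -0.18, 0.68 and -0.13.

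T4 was the highest array for 3 of the 4 members, and for 9.72% of all genes tested. On T4 the score of 11 Sertoli cell markers was the lowest of all arrays, at -0.18, where the other arrays ran from -0.13 to 0.11. Of the 11 Sertoli cell markers 6 had an r under -0.5 with Piwil2, 6 with Ddx4, 4 with Mael and 0 with Tdrd1, where 16.9%, 21.7%, 20.2% and 6.94% of all genes did. The part of the Sertoli cell genes in the members' pattern was not tested.

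The genes most like each member over the 10 arrays, among 11547 with a symbol, were Meiob (r = 0.95), a factor of meiotic recombination, and H1f8 (0.95), a linker histone of oocytes, for Piwil2. For Mael they were Kifc3 (0.97), a kinesin, and Pear1 (0.95), a receptor of platelets and endothelium. For Ddx4 they were Hps3 (0.97), of lysosome-related organelles, and Dcaf4 (0.95), a substrate receptor of a ubiquitin ligase. For Tdrd1 they were Alms1 (0.96), a protein of the centrosome, and Slc49a4 (0.93). These genes are in none of the lists used here, and their r is a description of 10 arrays. Each was picked for its high r out of 11547 genes, a choice that by itself favours high values. T4 was not left out and group means were not subtracted, and a link of these genes to the members was not tested.

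The rest of the pathway was read from a list of 23 further genes, of which 18 had a probe and 15 were tested. Of these 15, 10 stood higher and 5 lower in T, with a median difference of 0.12, and none passed the adjusted test (limma). Unadjusted, 2 were higher and 1 lower at p under 0.05, beside the 1.59% and 2.38% of all probes. With quantile normalization, slide as a block or the authors' values the count of higher genes was also 10.

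Gtsf1, a zinc finger partner of PIWI proteins that is needed to silence transposons, had the smallest p of them. Its levels were -0.81, -0.69, -0.71, -0.65 and -0.74 on C1 to C5 and -0.57, -0.35, -0.43, -0.47 and -0.58 on T1 to T5. All T arrays lay above all C arrays, as they did for 0.192% of all probes, by 0.24 ± 0.063 (1.18-fold; limma p = 0.00319, adjusted p = 0.999; exact permutation p = 0.00794). The difference was 0.28 within slide 1 and 0.20 within slide 2. Gtsf1 had an r of 0.60 with Piwil2 and 0.61 with Mael, with group means not subtracted.

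Prmt5, the methyltransferase that puts the methyl marks on PIWI proteins which Tudor proteins such as Tdrd1 bind, lay lower in T. Its levels were 0.47, 0.26, 0.18, 0.23 and 0.23 on C1 to C5 and 0.12, 0.15, 0.15, 0.04 and -0.08 on T1 to T5. All T arrays lay below all C arrays, as they did for 0.53% of all probes, with a difference of -0.20 ± 0.075 (limma p = 0.024, adjusted p = 0.999; exact permutation p = 0.00794). Its partner Wdr77 had a difference of -0.08 ± 0.072 with overlapping groups. Over the arrays Prmt5 had an r of 0.73 with Tdrd1 and of -0.66 with Piwil2. Group means were not subtracted, so each r also holds the differences between T and C, and a link between these genes was not tested.

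Tex19.1, a germ cell protein that restrains retrotransposons, had a difference of 0.18 ± 0.077 (limma p = 0.0449, adjusted p = 0.999; exact permutation p = 0.0397), and of 0.11 with the germ cell score as a covariate. Gpat2, a mitochondrial protein that binds Piwil2, had the largest difference of the list at 0.32 ± 0.15. The other Tudor proteins tested had differences of 0.20 ± 0.13 for Stk31, 0.09 for Tdrd7, -0.06 for Tdrkh and -0.09 for Tdrd5, none past the unadjusted threshold. Mybl1, the transcription factor that drives piRNA precursors later in meiosis, stood at -0.19 ± 0.098. Piwil1, the PIWI protein of meiotic and later germ cells, and Rnf17 were well above background on 0 of 10 arrays, and Tdrd6 on 1.

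**Figure D3:**
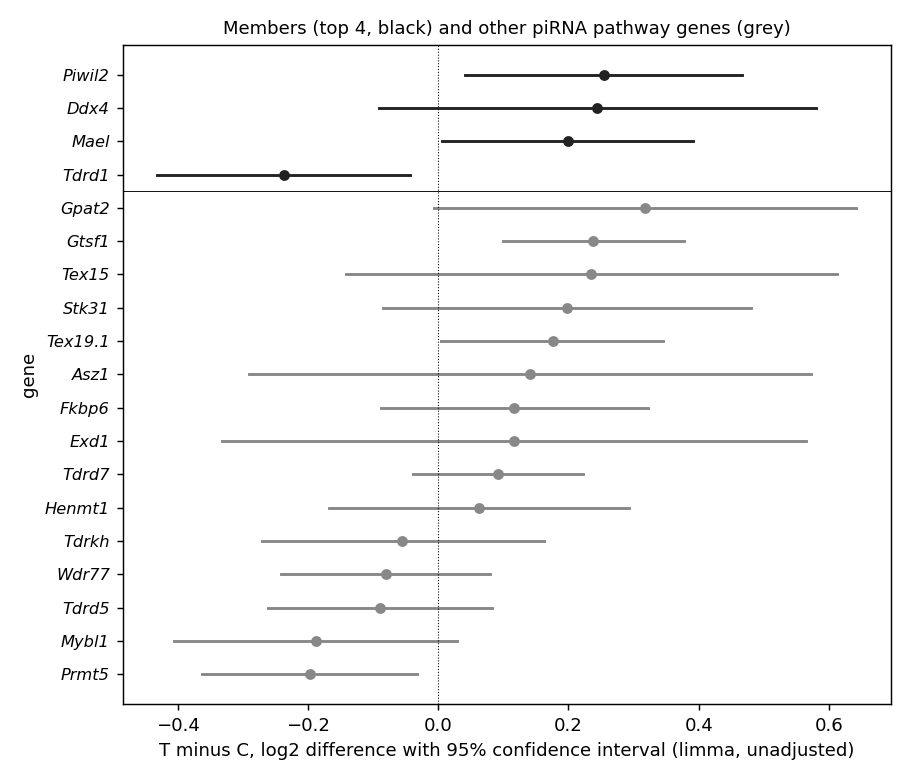
Differences between T and C (horizontal axis: log2, points; lines: unadjusted 95% confidence intervals of limma, 5 arrays per group) for the 4 measured members and the 15 other pathway genes tested. Piwil2, Mael, Gtsf1 and Tex19.1 lie to the right of 0 with their intervals, and Tdrd1 and Prmt5 to the left.

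T4 was the highest array for 6 of these 15 genes, beside 9.72% of all genes, and T5 and C1 were the lowest for 5 each, beside 13.3% and 12.8%. Of the 15, 8 had an r above 0.5 with Piwil2 and 4 an r under -0.5, where 11.7% and 16.9% of all genes did. The 4 were Tdrd5 (-0.60), Mybl1 (-0.79), Prmt5 (-0.66) and Wdr77 (-0.64). Those with the highest r with Piwil2 were Gpat2 (0.81), Tdrd7 (0.75) and Tex19.1 (0.73). With Ddx4 the highest was Asz1 (0.85), an ankyrin protein of mitochondria in germ granules, and with Mael it was Fkbp6 (0.89), a co-chaperone of piRNA loading. With Tdrd1 there were 3 above 0.5, namely Prmt5 (0.73), Tdrd5 (0.60) and Tdrkh (0.57). Of the 23 germ cell markers, 4 had an r above 0.5 with Piwil2, 4 with Mael, 6 with Ddx4 and 1 with Tdrd1, where 11.7%, 13.3%, 12.3% and 8.2% of all genes did, and 1, 2, 2 and 0 had an r under -0.5. The highest with Piwil2 was Dazl, an RNA-binding protein of germ cells, which had r = 0.87 with Piwil2, 0.83 with Mael and 0.77 with Ddx4 but -0.13 with Tdrd1. These r belong to the brighter Dazl probe. A dimmer Dazl probe also passed the filter, and its r with the members was not computed. The lowest with Piwil2 was Pou5f1, the pluripotency factor OCT4, with r = -0.55, and it had -0.80 with Mael and -0.57 with Ddx4. For no r in this paragraph were group means subtracted.

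**Figure D4:**
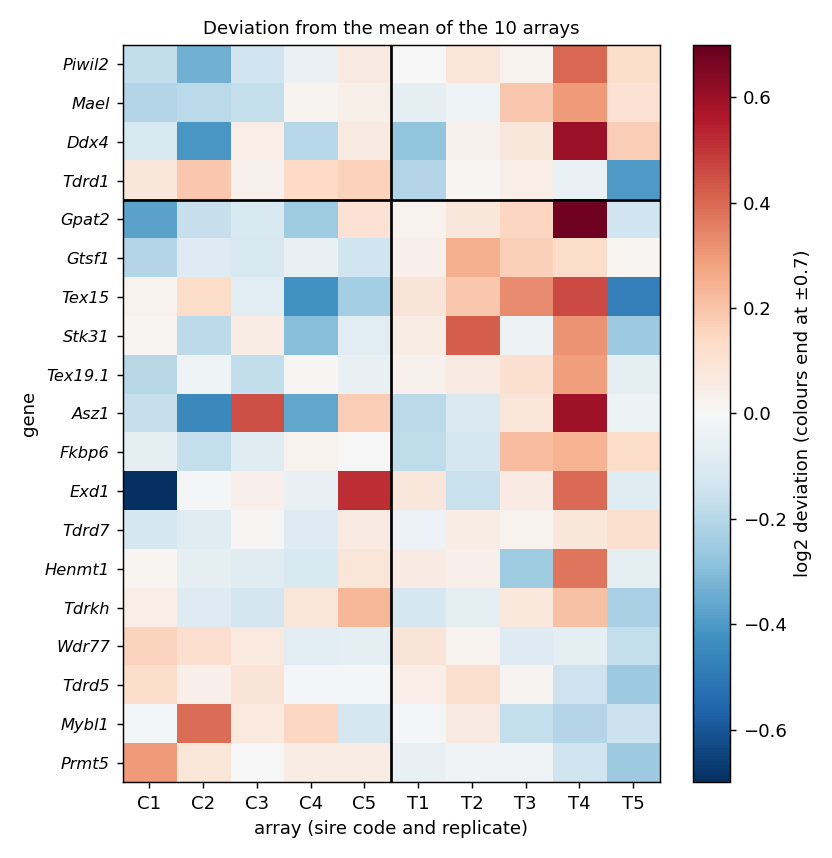
Deviation of each gene from its mean over the 10 arrays (colour: log2, red higher; rows: 4 members above the line, 15 other pathway genes below it; columns: arrays C1 to C5 and T1 to T5). The column of T4 is red for Piwil2, Mael, Ddx4, Gpat2 and Asz1, and the row of Tdrd1 is blue on T1 and T5, its lowest arrays at -4.81 and -5.01.

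Of 18 listed genes that silence transposons through chromatin, 9 were tested, 2 higher and 7 lower in T with a median of -0.051, where 41.5% of all probes were higher with a median of -0.020. With quantile normalization, slide as a block or the authors' values 3 of the 9 were higher, beside 44.5% to 45.9% of all probes. The smallest p-values were those of Trim28, the corepressor that recruits histone methylation to retroviral elements (-0.13 ± 0.082), Suv39h2, a histone methyltransferase (-0.14 ± 0.11), and Dnmt3a, a DNA methyltransferase (-0.07 ± 0.064). Dnmt3l, the cofactor of DNA methylation in gonocytes, stood at 0.20 ± 0.41, with a wide interval from -0.70 to 1.11. T5 lay alone at -3.417, where T1 to T4 ran from -5.595 to -5.152 and C1 to C5 from -5.941 to -4.481. With slide as a block no gene of the chromatin list stood above 0.047. Of 4 tested genes that restrict retroelements in the cytoplasm, all were lower in T by 0.02 to 0.22, Zc3hav1 most (-0.22 ± 0.11). None of these genes passed the adjusted test or had an unadjusted p under 0.05 (limma).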

How the data were processed

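Total RNA of 10 testis samples was hybridised to 1-colour rat arrays, from 100 ng RNA labelled with Cy3 per the labels' protocols. The deposited scanner files hold spot intensities from Agilent Feature Extraction 10.7.3.1 per the file headers (10.7 in the submitters' processing notes), background-subtracted and not scaled between arrays. Flags for outliers, saturation and background stand beside the intensities in the deposited files and are listed here under other units. A deposited table of the authors holds log2 values centred per probe, whose scaling and choice of probes are unknown; its columns had medians from -0.0171 to 0.0291 and correlated with the scanner values at 0.9978 to 0.9987, with higher values for more signal.

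Intensities were taken as log2, the 75th percentile of each array was subtracted, 494 to 745 outlier spots per array were set to missing and replicate spots averaged (0 spots were saturated). Probes well above background on at least 5 of 10 arrays were then kept (21892 of 30367). Probes were named through RefSeq transcripts without version (GRCr8 table; 17998 named, 12369 not). A gene is represented by its tested probe with the highest mean. T was compared with C by limma 3.58.1 in R 4.3.3 with Benjamini-Hochberg adjustment over all probes. Permutations numbered 100000 for correlations over 10 arrays and were complete otherwise. The tests were checked on simulated data. Samples with different father codes are taken as separate; p-values measure the spread between these samples, of which there are few. Members, lists, motifs and tests were chosen with earlier results of these data known. Named are the members, up to 3 genes of smallest p in a list and the 2 genes most like each member; Stk31, Tdrd7, Tdrkh, Tdrd5, Wdr77, Gpat2, Mybl1, Dnmt3l and those named for a correlation were added after their values were seen. A search for transposon probes by description was planned and not run, since the columns used here hold no descriptions. Normexp used the median spot signal.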

Additional observations from a re-analysis of the deposited data

Results flagged for a closer look

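Of 18 groups of 5 arrays examined (4 members, Gtsf1, Prmt5, Tex19.1 and the germ and Sertoli cell scores, C and T each), 1 held an array far from the others, where chance gives about 5% of groups. For Prmt5, C1 was at 0.474 and the mean of the other C arrays was 0.222. Without C1 the difference of Prmt5 between T and C was -0.15.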

How the results depend on the processing

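Over 27 alternatives 0 probes passed the adjusted test (limma), and over 29 alternatives each member kept its direction without passing: 0.15 to 0.30 for Piwil2, 0.08 to 0.24 for Mael, 0.04 to 0.35 for Ddx4 and -0.34 to -0.15 for Tdrd1 (adjusted p from 0.848 to 1). The mean over tested probes equals the main value, as each member has 1 tested probe. Unadjusted counts of 349 higher and 520 lower probes became 220 and 261 with normexp at an offset of 50, which shrinks differences of dim probes; lower probes were 311 at an offset of 16, and 325 both within slide 1 and with the replicate block. C and T arrays with the same first number in the father code had correlations of deviations of -0.512, 0.283 and 0.194. These were set against no other pairs, so whether the number pairs the samples was not tested. With the first number as a replicate block the differences were 0.15 for Piwil2, 0.08 for Mael and 0.13 for Ddx4. They were -0.21 for Tdrd1, -0.096 for Prmt5 and 0.092 for Tex19.1. The last number of the father code was 2 on C5, T4 and T5, all on slide 2, and 1 on the other arrays. With the last number as a term the differences were 0.209 for Piwil2, 0.165 for Mael, 0.172 for Ddx4 and -0.221 for Tdrd1. The r of Piwil2 with Mael ran from 0.78 to 0.94 leaving out 1 array, and was 0.64, not passing, after subtracting group and slide means. That of Piwil2 with Ddx4 ran from 0.71 to 0.93 and was 0.79 likewise (not passing then, nor without C2, T4 or T5); that of Mael with Ddx4 ran from 0.57 to 0.84 and lost its call after subtracting group means (0.69), slide means (0.68) or both (0.66) and with normexp (0.67), and without C1, C2, C5, T2, T3, T4 or T5. The r of Tdrd1 turned after subtracting group means, and group and slide means: 0.05 and 0.035 with Piwil2, 0.26 and 0.59 with Mael, 0.02 and 0.001 with Ddx4. Against the germ cell score Tdrd1 turned by rank (-0.139) and without T5 (-0.205 to 0.226 leaving out 1 array; 0.717 after subtracting group means, with or without slide means), and Mael with normexp (-0.048). The cause was not tested. Tdrd1 rests on 1 dim spot, and whether its dim signal has a part in these changes of r was not tested. Ddx4 rests on 1 spot as well.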

Other observations

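Lists of other testis cells, none of whose genes passed the adjusted test (limma), stood as follows. Over all probes 41.5% had the higher mean in T, with a median difference of -0.020. Of 11 Sertoli cell genes 9 were lower in T, with a median of -0.053, led by Rhox5, a homeobox gene of Sertoli cells (-0.52 ± 0.24), and Amh, the anti-Müllerian hormone (-0.28 ± 0.15). The count of lower Sertoli cell genes was 8 with quantile normalization and 7 with slide as a block or the authors' values. In these settings 44.5% to 45.9% of all probes were higher. Of 6 Leydig cell genes 4 were higher, Insl3 most (0.35 ± 0.18), and with slide as a block 3 were higher and 3 lower. Of 8 peritubular myoid genes 6 were lower, with Cnn1, a calponin, at -0.13 ± 0.093. Of 5 endothelial genes 4 were higher. Pecam1, an adhesion molecule, had all T arrays above all C arrays (0.21 ± 0.082), as 0.192% of all probes did. Macrophage genes were split into 4 higher and 4 lower, and the 3 erythroid genes were higher by 0.18 to 0.28. Germ cell markers had 16 higher and 7 lower, with a median of 0.051, and from 14 to 17 were higher over 3 other settings. Tex101, a surface protein of germ cells, stood at 0.24 ± 0.077. Lhx1, a factor of stem spermatogonia, stood at -0.63 ± 0.33, with a dim probe that cleared the background on 4 C arrays and 2 T arrays.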
